A study of Mus musculus with 2 samples.

Results

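The locus described here is a 650 kb interval of mouse chromosome 2, from 165350000 to 166000000 in the mm9 genome build, set to cover the genes Eya2, Zmynd8 and Ncoa3. Its members were the regions called from ChIP-seq whose middle lay in this interval. Sample 1 had 30 of its 25592 regions there and sample 2 had 35 of its 42619 regions. Overlapping regions were merged into 38 separate positions, out of 47560 over both lists. The interval was chosen because it holds the 100 kb window with most regions found in both samples. Its density and the sharing of its regions are therefore given as a description, with no test.

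Chromatin immunoprecipitation was carried out on corneal epithelium of K14 DN-Clim mice at postnatal day 7. The data comprised 1 group of 2 replicates, both carrying the transgene and both precipitated with an antibody to the Myc tag of its product. The keratin 14 promoter is active in basal epithelial cells, so the tagged protein is a transgene product made mainly in those cells, and the endogenous Clim proteins carry no tag. Each list belongs to 1 replicate. There is no background level to set beside the regions, since libraries of input or of mice without the tag were not analysed here. How far the regions mark binding by the transgene product was not tested. The labels name no animals for the replicates, and the spread between them may be technical. The sources used here give no read totals, and the number of reads behind each region is unknown.

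The Clim proteins (Ldb, Nli) are nuclear adaptors that bind LIM-domain transcription factors and do not bind DNA themselves. A dominant-negative form competes with the endogenous adaptors for these partners. The 3 genes that name the locus also encode cofactors. Eya2 encodes a protein of the eyes absent family, a transcriptional coactivator and phosphatase that works with homeodomain proteins of the sine oculis family. Zmynd8 encodes a chromatin reader that recognises modified histones and takes part in both activation and repression of transcription. Ncoa3, also named Src3 or Aib1, encodes a coactivator of nuclear receptors of the p160 family. In the RefSeq gene table of the GRCm38 assembly, all 3 genes were found, in the order Eya2, Zmynd8 and Ncoa3 on chromosome 2. Slc2a10, a member of the glucose transporter family, is the next protein-coding gene before Eya2, and Sulf2, an extracellular heparan sulfate sulfatase, the next after Ncoa3. The table lists 6 further genes between Eya2 and Ncoa3, among them the long noncoding RNA genes Gm29993 and Platr29. Its coordinates belong to another build than the lists, so whether Slc2a10 or Sulf2 reaches into the interval is not known here. Which regions lie in a promoter, an exon, an intron or between genes was therefore not analysed here, and the sequences of the regions were not used here.

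The locus carried called regions along most of its length, with 2 quiet stretches in its first part. Of the 38 merged regions, 27 were in both lists, 3 were seen in sample 1 alone and 8 in sample 2 alone. The density of shared regions was 4.15 per 100 kb, against 0.838 on chromosome 2 and 0.798 over chromosomes 1 to 19 and X, which makes it 5.2 times as high as the latter. Each list alone was denser here too. Sample 1 had 4.62 regions per 100 kb (4.65 times its density over chromosomes 1 to 19 and X) and sample 2 had 5.38 (3.26 times). The regions are short, so they covered only 0.455% of the locus in sample 1 (2960 bp) and 0.592% in sample 2 (3849 bp).

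**Figure D1:**
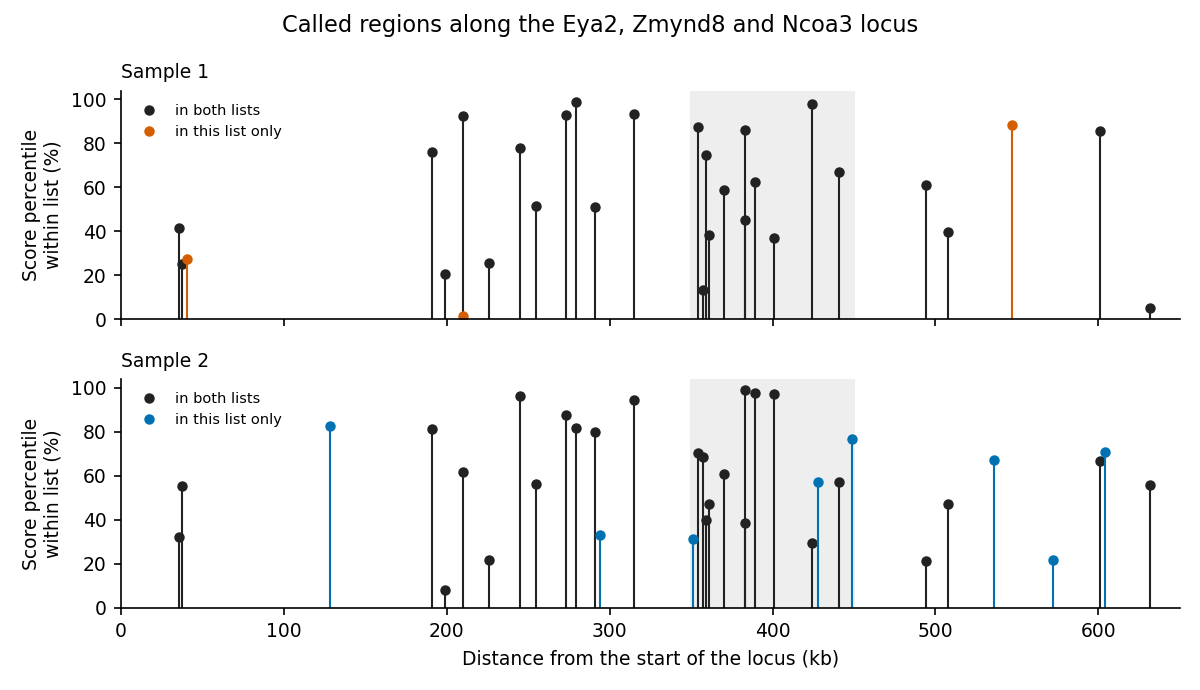
Called regions along the locus in sample 1 (top) and sample 2 (bottom). Each stem is 1 region, placed by the distance in kb of the middle of its merged region from the start of the locus. Its height is the percentile of its score among all regions of the same list. Black stems are regions in both lists, coloured stems regions in 1 list, and the grey band is the 100 kb window with most shared regions. The 27 shared regions stand at the same place in both panels because the merged position is drawn, while their heights often differ.

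Sharing between the samples was high at this locus. Of the sample 1 regions, 27 of 30 (90.0%) shared at least 1 bp with a region of sample 2, against 80.4% of the whole list. Of the sample 2 regions, 27 of 35 (77.1%) did so with a region of sample 1, against 48.4% of the whole list. These shares helped to choose the locus and support nothing by themselves. The lowest score was 70.03 in the sample 1 list and 50.0 in the sample 2 list. Taking both scores to be on 1 scale, 36.8% of all sample 2 regions lay below 70.03, against 22.9% of those in the locus. How far this bears on the shares was not tested. Among the 423 windows of the same length with at least 20 sample 2 regions, 1 had a higher share of shared sample 2 regions. Among the 66 such windows of sample 1, 8 had a higher share.

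When the chromosomes were divided into windows of 650 kb, the locus had the highest count of shared regions, together with a window on chromosome 11 from 117250001 to 117900000, which also held 27. The windows were laid out so that 1 of them matched the borders of the locus, which favours it over windows whose borders were not fitted. The median was 5 over the 3666 windows with any shared region. By sample 1 regions alone the locus ranked 4 of 3736 windows, and by sample 2 regions alone it ranked 17 of 3902.

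The regions were not spread evenly along the locus. Read from its start, the first 50 kb held 3 regions close together, 2 of them shared. A stretch of 87.5 kb without any region followed, then a single sample 2 region from 165477728 to 165477784, then a further 63.2 kb without a region. Between the shared regions that start at 165387337 and 165540975 no shared region was found over 153 kb, the longest such stretch of the locus. From there to the end of the densest window the regions followed at shorter distances, with a longest gap of 36.5 kb, from 165664924 to 165701386. The last 200 kb of the locus were sparser, with 4 shared regions, 1 in sample 1 only and 3 in sample 2 only. A stretch of 44.7 kb without a region, from 165798760 to 165843497, led into this part.

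**Figure D2:**
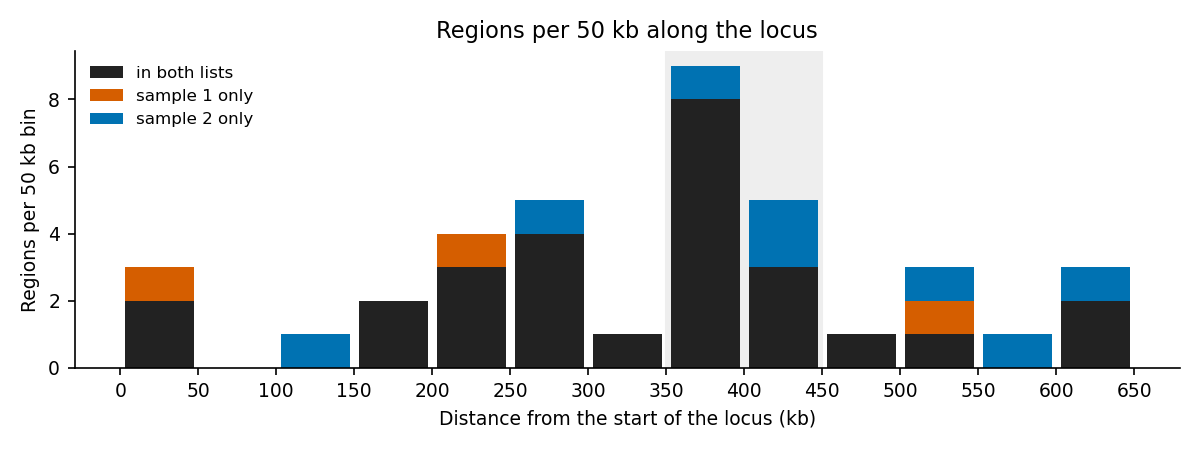
Number of merged regions in consecutive 50 kb bins along the locus, stacked as in both lists (black), in sample 1 only (orange) and in sample 2 only (blue). The x axis is the distance from the start of the locus in kb and the grey band is the densest 100 kb window. The bin that starts at 350 kb holds 8 shared regions and 1 of sample 2 only, more than any other bin, and the bin that starts at 50 kb holds none.

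Neighbouring merged regions of the locus lay at a median distance of 11.1 kb from middle to middle (37 distances), against 27.6 kb on chromosome 2 and 29.2 kb over chromosomes 1 to 19 and X. Counting shared regions alone, the median was 12.1 kb, against 59.2 kb and 62.8 kb. The shorter spacing came from distances between 1 and 20 kb rather than from regions that nearly touch. Distances under 1 kb made up 5.41% of those in the locus and 4.19% of those over chromosomes 1 to 19 and X, while distances under 20 kb made up 73.0% and 39.5%. The closest merged regions of the locus were the shared region from 165559697 to 165559814 and the sample 1 region from 165559847 to 165559957, with 32 bp between them. That sample 1 region had the lowest score of its list in the locus, 73.49, and sample 2 had no region of its own there. Among shared regions, the closest were those that start at 165732633 and 165733135, with 297 bp between them.

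The densest window runs from 165700001 to 165800000. It held 11 regions of sample 1, all of them shared, and 14 regions of sample 2, of which 11 were shared. No window of 100 kb held more shared regions, and of the 25763 windows 12332 held any. The median distance between neighbours in this window was 6.25 kb, against 10.8 kb in the 350 kb of the locus before it and 24.2 kb in the 200 kb after it. Moving a 100 kb window along the locus in steps of 1 kb gave no count above 11, which was reached for starts from 165691001 to 165703001, so other window borders did not raise the count. Windows moved in the same way reached 10 on chromosome 4, the highest count on any other chromosome.

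The first part of the densest window held a tight group of 5 regions. The first of them, from 165701386 to 165701471, was in sample 2 only, with a score of 66.63. It was followed by 4 shared regions. The region from 165703905 to 165704057 scored 278.63 in sample 1 and 105.16 in sample 2, in the upper part of both lists. The region from 165707005 to 165707185 scored 95.57 and 102.51, which is the 13.3 percentile of sample 1 and the 68.6 percentile of sample 2. The scores of the next, from 165709165 to 165709348, were 224.93 and 72.87. The last, from 165710631 to 165710812, scored 149.02 and 79.19, below the median of both lists. The group thus mixed strong and weak regions, and its members did not take the same order in the samples. The scores are the authors' own values as deposited, and percentiles are used here because scores of separate lists may not be on 1 scale.

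The middle of the window held the regions that ranked highest in sample 2. The region from 165720357 to 165720490 scored 183.35 in sample 1 and 93.19 in sample 2, the 58.6 and 60.9 percentiles. The region from 165732633 to 165732837 scored 159.05 and 71.97. Next to it, the region from 165733135 to 165733217 scored 269.17 and 253.72, the highest sample 2 score of the locus, at the 85.9 and 99.1 percentiles. Further on, the region from 165739388 to 165739469 scored 190.47 and 208.17. The one from 165750465 to 165750647 scored 146.17 and 200.10. In sample 2 these last 3 regions lay at the 99.1, 97.7 and 97.2 percentiles, while in sample 1 they lay at the 85.9, 62.3 and 36.9 percentiles. They were the 3 highest sample 2 regions of the locus and followed one another, with middles 6252.5 and 11127.5 bp apart. The first of these distances is itself the median of the window (6.25 kb), and the second is itself the median of the locus (11.1 kb). Setting them beside these medians is therefore no comparison.

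The end of the window showed the opposite contrast. The region from 165774064 to 165774189 scored 412.46 in sample 1, the 97.8 percentile, and 65.15 in sample 2, the 29.6 percentile. It ranked 2 of 30 by score in sample 1 and 31 of 35 in sample 2. The region from 165777942 to 165778031 was in sample 2 only, with a score of 88.93. The shared region from 165790542 to 165790682 scored 202.35 and 89.13, and the last one, from 165798701 to 165798760, was in sample 2 only with a score of 114.88. A region could therefore be called in both lists and hold very different ranks in them.

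Before the densest window, the locus held 4 of the 5 regions that ranked highest in sample 1. The highest was the region from 165629275 to 165629406. Its score was 465.98 in sample 1 (98.8 percentile) and 124.29 in sample 2 (81.8 percentile). The region from 165664848 to 165664924 scored 328.07 and 173.26, the 93.4 and 94.5 percentiles. It was the only one among the 5 highest of the locus in both lists. The region from 165623315 to 165623403 scored 322.87 and 140.22. At 165559697 to 165559814 the scores were 316.69 and 94.60. They lay at the 92.9 and 92.3 percentiles of sample 1. The region from 165594830 to 165594937 had the sample 2 score that ranked 4 of 35, 187.99, at the 96.3 percentile, and scored 235.05 in sample 1. Of the 12 shared regions in this part of the locus, 8 scored above the median of both lists, against 5 of 11 in the densest window and 1 of 4 after it. By the median percentile of all regions the samples differed in order. In sample 1 it was 51.2 before the densest window and 62.3 in it, and in sample 2 it was 70.9 and 59.1. These counts are small and no test was made.

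Over the locus, the median score was 186 in sample 1, with a range from 73.49 to 465.98, and 93.2 in sample 2, with a range from 53.10 to 253.72. These medians stood at the 59.7 percentile of sample 1 and the 60.9 percentile of sample 2. The regions were therefore of middling rank. Of the sample 1 regions 18 of 30 lay above the median of their list and 5 in its top 10%, and of the sample 2 regions 23 of 35 and 5. None approached the highest score of 3100 that both lists reach. Among windows of the same length with at least 20 regions, the median of the window medians was the 48.2 percentile in sample 1 (66 windows, interquartile range 42.6 to 56.7) and the 52.3 percentile in sample 2 (423 windows, 46.4 to 58.1). The locus lay above the upper quartile in both, with 11 and 65 windows above it. Score goes with sharing in these lists, and sharing chose the locus, so this is a description. Among shared regions alone, the median percentile of the locus was 60.9 in sample 1, against 53.2 over all shared regions. In sample 2 it was 60.9, against 62.8, so shared sample 2 regions did not rank higher here.

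The shared regions can be set against each other pair by pair. Over the 27 pairs, Spearman's rho between the scores of the samples was 0.422, against 0.176 over all 20651 pairs of the lists. It is a correlation across regions of the same libraries, which are not independent replicates. No interval was computed for it, and the difference from the value over all pairs was not tested. In 14 pairs the region lay above the median of both lists, in 6 below the median of both, in 3 above it in sample 1 only and in 4 above it in sample 2 only. The raw score was higher in sample 1 in 23 of 27 pairs, as it was in 84.6% of all pairs. By percentile, sample 1 was higher in 13 of 27 pairs. Over all shared regions of the lists the median percentile was 53.2 in sample 1 and 62.8 in sample 2. Shares over all pairs are not given here for this count or for the split by the list medians.

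**Figure D3:**
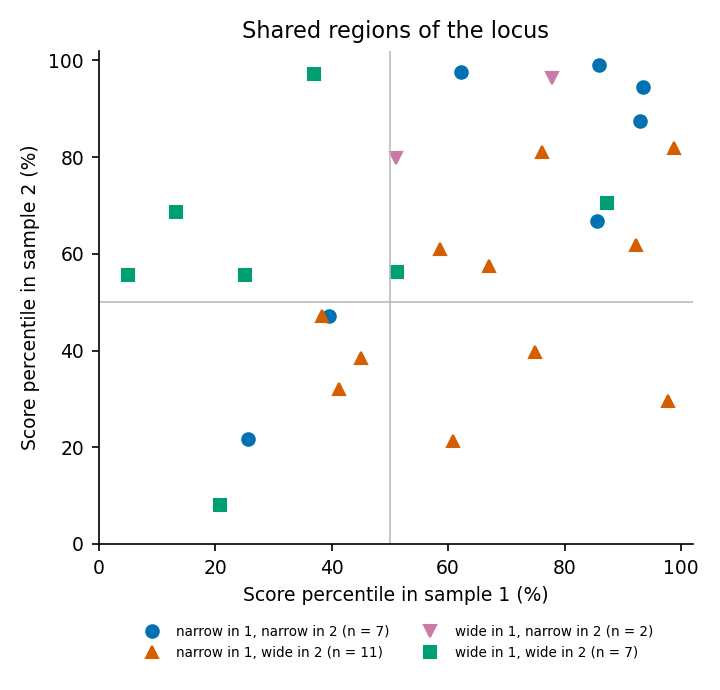
Score percentile of the 27 shared regions of the locus in sample 1 (x axis) and sample 2 (y axis), each within its own list, with lines at the middle of each list. Symbols mark the width class of the region in each sample. Of the points, 14 lie at the upper right and 6 at the lower left of these lines, and the regions wide in both samples lie mostly to the left, with lower percentiles in sample 1.

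Taken over all regions, those of the locus were about as wide as those of the lists. The median width was 82 bp in sample 1 (range 69 to 183 bp), against 83 bp in its list, and 109 bp in sample 2 (range 55 to 233 bp), against 105 bp. Both lists hold a narrow and a wide population, here divided at 105 bp for sample 1 and at 100 bp for sample 2. Sample 1 had 20 narrow regions of 30 (66.7%, exact 95% interval 47.2 to 82.7%), against 62.7% of the list. Sample 2 had 15 of 35 (42.9%, exact 95% interval 26.3 to 60.6%), against 47.5%. These exact (Clopper-Pearson) intervals cover counting error over regions only, and both hold the value of the list. Among shared regions alone, the sample 2 median was 117 bp in the locus, against 101 bp over the list. Of these, 33.3% were narrow in the locus (exact 95% interval 16.5 to 54.0%), against 49.5%, a value within the interval. In sample 1 the medians of shared regions were 82 and 83 bp. Narrow regions of the locus scored higher than wide ones in each list, with medians of 214 against 135 (sample 1) and of 115 against 86.8 (sample 2), as they did in the whole lists (194 and 110, 97.5 and 69.0).

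The same region often had another width class in the other sample, in the locus and over all pairs of the lists. Of the 27 pairs, 7 were narrow in both lists and 7 wide in both. In 11 the region was narrow in sample 1 but wide in the other list, and in 2 the reverse. The pairs narrow in both and wide in both made 25.9% each, against 36.4% and 23.4% of all pairs. The 2 pairs made 7.41%, against 13.1%. The 11 pairs make 40.7% (exact 95% interval 22.4 to 61.2%), against 27.2% of all pairs, a value within the interval. In the densest window 6 of the 11 pairs were of this kind. There, the region that starts at 165732633 was 71 bp wide in sample 1, while sample 2 had it over 205 bp. The region that starts at 165710631 was called over 76 bp and 182 bp, and the region that starts at 165709165 over 78 bp and 184 bp. The region that starts at 165707005 was wide in both lists, with 181 bp in sample 1 against 111 bp. The widest sample 1 region of the locus, at 165750465, was called over 183 bp and its sample 2 partner over 134 bp.

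Rank differed by width class in these pairs. The 7 pairs narrow in both lists had a median percentile of 85.5 in sample 1 and 87.5 in sample 2, and the 7 pairs wide in both had 25.1 and 56.2. The 11 pairs narrow in sample 1 and wide in sample 2 had 67.1 and 47.2. Over all pairs of the lists, the same classes had 65.2 and 72.6, 24.6 and 60.6, and 66.1 and 49.5. The 2 pairs wide in sample 1 and narrow in sample 2 had 64.5 and 88.1, against 19.6 and 70.8 over all such pairs. The medians of the locus rest on 2 to 11 pairs per class, and no difference was tested.

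**Figure D4:**
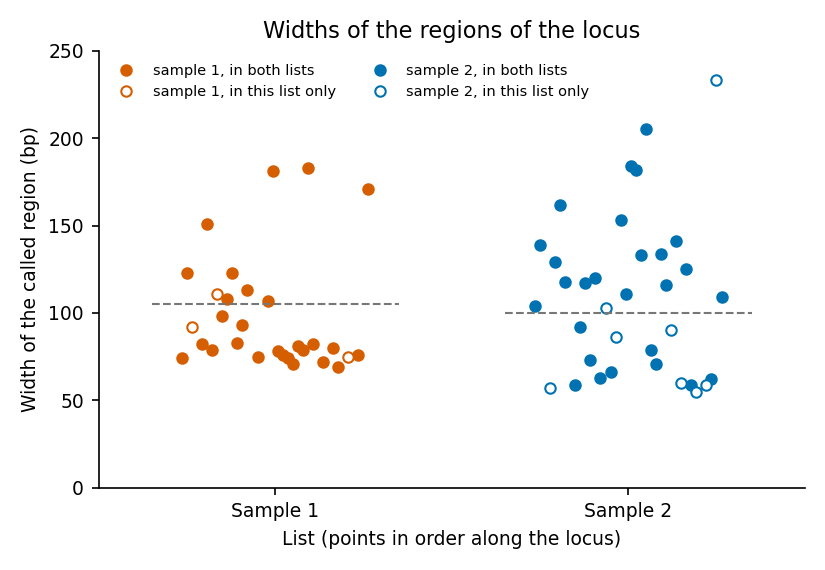
Width in bp of each region of the locus, for sample 1 (30 regions) and sample 2 (35 regions), with the points of each list in order along the locus. Filled points are in both lists, open points in that list only, and dashed lines mark the boundary between narrow and wide regions (105 bp and 100 bp). Most sample 1 regions lie below the line, and the widest region, 233 bp, is an open point of sample 2.

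Paired regions lay close together, which is in part fixed because pairs are defined by overlap of short regions. The middles of the pairs lay at a median of 13 bp from each other, and at most 41.5 bp, against a median of 14.5 bp over all pairs. The overlap was 57 to 147 bp, with a median of 76 bp. In 8 pairs the sample 1 region lay wholly inside the sample 2 region, in 5 the reverse, and in 14 the regions were staggered. Shares over all pairs are not given here for these counts, so they are not read as a trait of the locus. Of the 27 pairs, 1 had the same start and 1 the same end (3.7% each). Over all pairs of the lists 7.81% of starts and 7.56% of ends were identical, and counts this small do not tell these shares apart. In 3 of the 27 pairs the sample 2 start lay 16 bp further in, against 7.67% of all pairs. The sample 2 end did so in 2 of the 27, against 7.74% of all pairs. These counts are also too small to tell the shares apart.

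The regions in 1 list only were of mixed strength. The highest of sample 1 lay from 165897376 to 165897450, with a score of 282.86 at the 88.1 percentile. The nearest sample 2 region was 11698 bp away and the nearest shared region 39240 bp. The other sample 1 regions without a partner scored 127.58 (165390116 to 165390207) and 73.49. The highest of sample 2 was the isolated region from 165477728 to 165477784, with a score of 126.19 at the 82.5 percentile. The nearest sample 1 region was 63233 bp away. The widest region of the locus, from 165953711 to 165953943, was also in sample 2 only, with a score of 105.42 at the 70.7 percentile. The 3 unshared sample 1 regions had a median percentile of 27.2, against 38.6 for all unshared regions of that list. For the 8 of sample 2 the median was 62.3, against 37.8. The latter ranged from the 21.8 to the 82.5 percentile. Without a depth, regions absent from the other sample and regions missed there cannot be told apart.

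In the last 200 kb of the locus, the 4 shared regions differed in strength. The shared regions from 165843497 to 165843640 and from 165858067 to 165858135 scored 188.24 and 150.85 in sample 1 and 59.46 and 79.12 in sample 2. The region from 165950824 to 165950902 was stronger, with 267.13 and 100.77, and the last one, from 165981808 to 165981980, had 80.01 and 86.49. In sample 2, 8 of the 35 regions of the locus (22.9%) scored below 70.03, the lowest score in the sample 1 list, against 36.8% of the whole list. This count takes the scores of the lists to be on 1 scale.

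The first regions inside it start at 165385555, and the nearest outside lay 56.1 kb before the border in sample 1 (score 166.26) and 19.7 kb before it in sample 2 (score 69.96). Behind the end of the locus, the next region was shared. It lay 8.26 kb beyond the border in sample 1, with a score of 285.50, and 8.23 kb beyond it in sample 2, with a score of 112.08.

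The next densest windows of 100 kb held 9 shared regions each. The first is on chromosome 18 (69500001 to 69600000), the next on chromosome 4 (139300001 to 139400000) and the last on chromosome 5 (119500001 to 119600000). The window of the Eya2, Zmynd8 and Ncoa3 locus held as many sample 2 regions, 14, as those on chromosomes 4 and 5, and more than the 10 on chromosome 18. Its neighbours were a median of 6.25 kb apart, against 4.56, 5.13 and 4.58 kb in these windows. The widths differed in sample 2. Its sample 2 regions had a median width of 124 bp, against 66, 72 and 80.5 bp, and 5 of 14 were narrow, against 8 of 10, 8 of 14 and 10 of 14. In sample 1 the median widths were 79 bp here and 78, 71 and 80 bp there. These windows were chosen by their counts, and the difference in width was noticed in the data and was not tested.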

How the data were processed

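Each sample had 1 list of regions, without a header, giving chromosome, start, end, name and score. The libraries were multiplexed, per the labels' protocols, and sequenced over 2 lanes with single-end reads, and the lanes were combined after alignment. The submitters' processing notes list Bowtie 0.12.7, bedtools 2.11.2 and mm9. Region names carry the prefix MACS, and the sources used here give no version, threshold or control for that caller. The score of a region was deposited by the authors without a definition. The lists hold no reads, so depth and precision are unknown.

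Lists were read and compared in Python 3.11.15 (pandas 2.3.3, numpy 2.4.6, scipy 1.17.1), and overlapping regions of both lists were merged with networkx 3.6.1. The code for overlaps was tested on simulated data and found every planted region. Shared regions are those with an overlap of 1 bp or more between the lists. Score percentiles were ranks within a list. Narrow and wide regions were divided at the least filled 5 bp bin between the populations of widths, per list. Windows covered chromosomes 1 to 19 and X, and coordinates are printed counting from 1.

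The members, the interval and the alternatives were chosen with earlier results of these data known. The regions named were all those of the densest window, the 5 highest of each list in the locus, the widest and the highest unshared of each list, the longest stretch without a region and the closest regions. Any other region was named with its values known. Alternatives tried were a stricter score limit, other overlap rules, moved windows and each list alone. Gene positions and sequences of the regions need mm9 data and were not analysed here.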

Additional observations from a re-analysis of the deposited data

How the results depend on the processing

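Counting any overlap with the interval kept 30 regions in sample 1 and 35 in sample 2, and a distance of at most 200 bp between middles kept 27 shared regions. With a reciprocal overlap of at least 50%, 23 shared regions were left in the locus and 8 in the densest window. The chromosome 18 window from 69500001 to 69600000 then held more, 9. The chromosome 4 window from 139300001 to 139400000 also held 8. Leaving out the lower 50% by score kept 18 regions of sample 1, 23 of sample 2 and 14 shared regions in the locus. The densest window kept 5 shared regions, and all these counts fell in part by construction. A chromosome 5 window from 122300001 to 122400000 then held 6. The densest window was 1 of 6 windows with 5, as was the window of the locus from 165600001 to 165700000. Without replicate 2, the densest window held 11 sample 1 regions, and only the first window of chromosome 9, from 3000001 to 3100000, held more, 31. Without replicate 1, it held 14 sample 2 regions, as did 3 other windows. The rank of the locus among windows of its length was 1 for shared regions and moved to 4 and 17 when replicate 2 and replicate 1 were left out. The median distance between neighbours, 11.1 kb, became 12.1 kb for shared regions, and 11.5 to 11.8 kb with either replicate left out. The median score percentile over shared regions alone was 60.9 in sample 1, against 59.7, and the median width of sample 2 was 117 bp, against 109 bp. Pearson's r of the log10 scores was 0.333. No paired analysis was possible because there is 1 group. The densest window is therefore among the densest under every alternative run, but its first place depended on the overlap rule, the score limit and the list used.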
